A study of Drosophila melanogaster with 18 samples.

Results

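By group means, 68 genes of the Drosophila melanogaster embryo were switched on at zygotic genome activation (ZGA). By the same means they kept a transcript level near wild type when the maternal supply of CBP was depleted. CBP, encoded by nej, is a histone acetyltransferase that places H3K27ac, a mark of active enhancers and promoters. The 68 genes were chosen by 3 limits on measured values, out of a table of 16680 genes. The unit of the limits is CPM, the count of a gene per 1e6 counts of its library. The wild-type (WT) mean had to lie under 1 CPM before nuclear cycle 9 and at 5 CPM or more at cycle 14, and the CBP-KD mean at cycle 14 had to lie between 0.5 and 2 times the WT mean. In all, 470 genes met the WT limits, of which 395 were lower than 0.5 times WT in CBP-KD, 7 were above 2 times WT, and the 68 kept genes lay between. These values chose the genes, so CBP-KD against WT at cycle 14, and the rise in WT between the stages, are given below only as a description.

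Bulk RNA-seq was made on whole embryos staged by hand, before cycle 9 and at cycle 14. The groups were E(z)-KD, CBP-KD and WT, each at both stages, with 3 replicates in each of the 6 groups. E(z)-KD embryos came from mothers carrying a short hairpin against E(z) in a Valium20 vector at attP2, CBP-KD embryos from mothers carrying a hairpin against nej in a Walium20 vector, and WT embryos from the empty attP2 control line. The hairpins were driven by the maternal GAL4 line matα4-GAL-VP16, which acts in the female germline, so the knockdown falls on the RNA and protein that the mother supplies, and it rests on 1 hairpin line per gene. Each library is a pool of whole embryos, in which fewer cells expressing a gene and less RNA per cell cannot be told apart.

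During the first nuclear cycles the fly embryo runs on maternal RNA. A small first wave of zygotic transcription comes before the main wave at cycle 14, when the nuclei are enclosed by membranes (cellularization) and the germ layers are laid down. The earliest zygotic genes are known for being short and often without introns, which lets them be transcribed within brief cycles. E(z) is the catalytic subunit of Polycomb repressive complex 2, which places H3K27me3, a mark of silent developmental genes.

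Total counts were 14237654 to 17040490 in E(z)-KD, 13804821 to 18262569 in CBP-KD and 6243486 to 13773744 in WT at cycle 14. Before cycle 9 they were 14745390 to 17946980 in E(z)-KD, 13918034 to 15245865 in CBP-KD and 16107228 to 17545601 in WT. A floor of 3 counts was worth 0.167 to 0.203 CPM in E(z)-KD and 0.171 to 0.186 CPM in WT before cycle 9. The targeted RNAs were low where the labels say so: E(z) had 3.56, 5.34 and 5.41 CPM in E(z)-KD at cycle 14, against 35.1, 31.5 and 32.5 CPM in WT, and nej had 673, 556 and 561 CPM in CBP-KD, against 1515, 2191 and 2149 CPM in WT. Before cycle 9, nej had 265, 276 and 218 CPM in CBP-KD, against 1084, 1209 and 1137 CPM in WT. E(z) had 0.0568, 0.271 and 0.223 CPM in E(z)-KD at that stage, against 107, 100 and 106 CPM in WT. CBP was thus reduced in RNA, not absent, at both stages. The paper reports a strong loss of H3K27ac staining in CBP-depleted embryos and of H3K27me3 staining in E(z)-depleted embryos. E(z) RNA was also low in CBP-KD at cycle 14, with 15.3, 9.91 and 7.32 CPM. The summed level of 11 pole cell and germ plasm RNAs was 4823, 4292 and 4451 CPM in E(z)-KD and 4858, 5846 and 5410 CPM in CBP-KD, against 2418, 2681 and 2592 CPM in WT. Of the 11, 2 were called higher in E(z)-KD, against 11.3% of all genes tested. The summed level of 22 markers of later tissues was 77.8, 73.0 and 84.2 CPM in E(z)-KD and 42.8, 29.2 and 20.7 CPM in CBP-KD, against 247, 220 and 234 CPM in WT at cycle 14. These sums rest on few genes: 2 or 3 markers exceeded 1 CPM in an E(z)-KD library, 2 to 4 in a CBP-KD library and 3 or 4 in a WT library. The list holds elav, which met the WT limits, with ratios to WT of 0.17 in CBP-KD and 0.24 in E(z)-KD. Of the 22 markers, 5 were tested in E(z)-KD at cycle 14, and 3 were called lower and 0 higher. Over all genes tested, 13.0% were called lower and 11.3% higher. Of these 22, 13 or 14 had no count in an E(z)-KD library, 6 to 12 in a CBP-KD library and 12 or 13 in a WT library, and none of 21 follicle cell and eggshell genes reached 1 CPM in any library. The part of the germ plasm and later tissue RNAs in the results below was not tested. CPM is a share of the library, and levels per embryo were not measured here.

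The kept genes were mostly weakly expressed, and the share of zygotic genes that was kept was lower at higher WT levels. Their median at cycle 14 was 4.56 CPM in E(z)-KD and 7.32 CPM in CBP-KD, against 7.64 CPM in WT. For the 395 genes that were lower in CBP-KD, the medians were 14.3 CPM in E(z)-KD and 3.01 CPM in CBP-KD, against 33.2 CPM in WT. Of the 68, 42 (61.8%) lay under 10 CPM in WT at cycle 14, compared with 22.3% of the 395. The kept share was 31.1% (42 of 135) at 5 to 10 CPM in WT, 16.2% (12 of 74) at 10 to 20 CPM, 7.06% (6 of 85) at 20 to 50 CPM, 8.47% (5 of 59) at 50 to 100 CPM and 2.56% (3 of 117) at 100 CPM or more. The 3 genes above 100 CPM were bnk, CG14014 and CR44504.

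Most kept genes were still somewhat below WT in CBP-KD. The ratio of the CBP-KD mean to the WT mean ran from 0.51 to 1.94, with a median of 0.76, and lay under 1 for 47 of the 68. The genes just inside the lower limit were CR43314 (0.510), Cyp309a2, a cytochrome P450 (0.523), and CG18171 (0.525), and those just outside were CG10566 (0.490), Tequila (0.483) and Mgat2 (0.479). At the upper limit CG18269 (1.94), CG3216 (1.83) and CG16791 (1.83) lay just inside, and Dhc62B (2.40), dac (2.51) and CG42342 (2.52) just outside. One CBP-KD library stood above the others: replicate 1 was the highest of its group for 55 of the 68 genes and replicate 3 the lowest for 40, with medians over the genes of 9.67, 7.09 and 5.67 CPM in replicates 1, 2 and 3. Without replicate 1 of CBP-KD the limits chose 54 genes, and without replicate 3 they chose 73. The median coefficient of variation over the 68 genes was 27.0% in CBP-KD, 18.2% in E(z)-KD and 11.4% in WT at cycle 14.

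**Figure D1:**
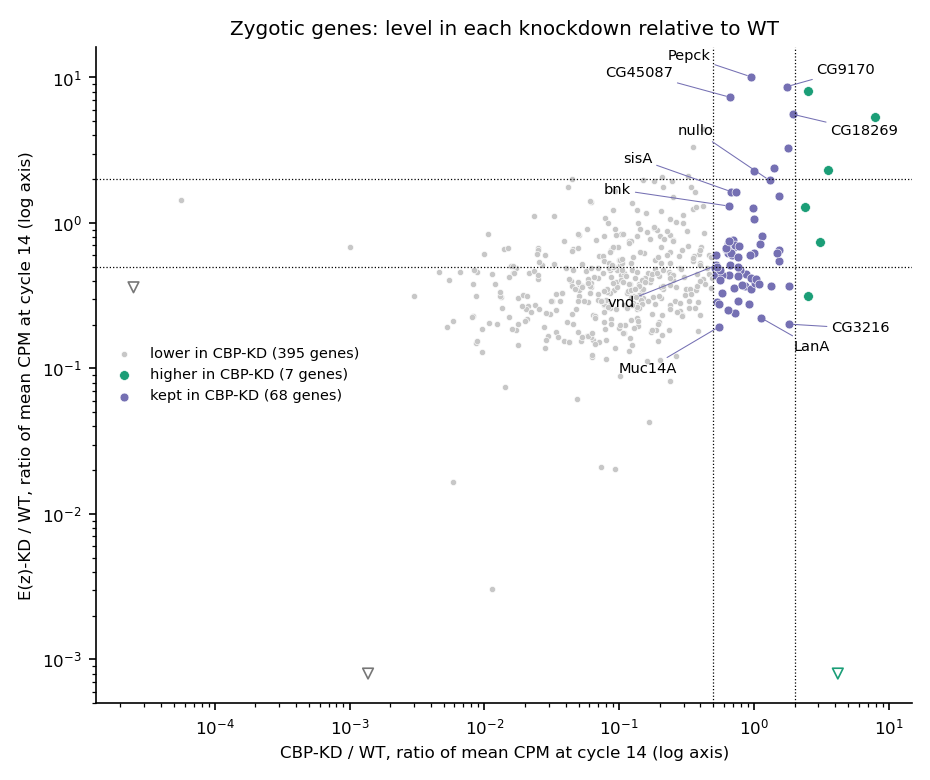
Each filled point is 1 of 467 zygotic genes, at its ratio of mean CPM at cycle 14 in CBP-KD over WT (horizontal, log axis) and in E(z)-KD over WT (vertical, log axis); open triangles at the edge are 3 genes with a ratio of 0, none of them kept, and dotted lines mark ratios of 0.5 and 2. The 68 kept genes lie by construction between the vertical lines, and in E(z)-KD they ran from 0.19 (Muc14A) to 10.1 (Pepck) times WT. Both ratios divide by the same WT means.

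Over all 470 zygotic genes 14.5% were kept, and patterning genes were described against that share by the same values that chose the genes, with no test. Of 22 gap and head patterning genes in the table, 19 met the WT limits, of which btd was kept and 18 were lower in CBP-KD. Of 31 dorsoventral genes 25 met the limits, and vnd was the kept one. No gene was kept among 9 zygotic pair-rule genes, 7 segment polarity genes, 7 Hox genes, 7 Notch, Bearded and E(spl) genes or 7 proneural and neuroblast genes. Lists of 7 or 9 genes are too small to set the lack of a kept gene apart from 14.5%. The lists were also not matched for WT level, and the kept share ran from 31.1% at 5 to 10 CPM to 2.56% at 100 CPM or more. Of the 52 germ layer markers that the study lists, 33 met the WT limits, sisA and vnd were kept and 31 were lower in CBP-KD. The cellularization and cell cycle list held 3 zygotic genes, of which bnk and nullo were kept and halo was lower.

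The same 68 genes were then compared between E(z)-KD and WT at cycle 14, a contrast the limits did not use. Its WT libraries, however, set both the 5 CPM limit and the denominator of the CBP-KD to WT ratio. With edgeR's quasi-likelihood test over 8467 genes, a gene was called at a Benjamini-Hochberg adjusted p under 0.05 and a log2 fold change of at least 1 in size. Of the 68 genes, all of which passed the count filter, 29 were called lower, 7 higher and 32 were not called. Over all genes tested, 13.0% were called lower and 11.3% higher. The median log2 fold change was -0.82 for the kept genes and -0.03 over all genes tested. Of 394 tested genes in the class lower in CBP-KD, 275 were called lower and 2 higher, and their median was -1.44. Without replicate 1 of CBP-KD in the choice of genes, 20 of the remaining 54 were called lower and 6 higher.

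By ratio of means, 31 of the 68 genes lay within 0.5 and 2 times WT in E(z)-KD, 30 lay under 0.5 and 7 above 2, against 72.4%, 14.7% and 12.8% of all genes tested. The median ratio was 0.57 in E(z)-KD, compared with 0.37 for the class lower in CBP-KD. Every E(z)-KD library lay below every WT library for 51 genes and above for 12, and the groups overlapped for 5. Over all genes tested, the libraries did not overlap for 33.5% below and 34.1% above. Of the 8 kept genes at 50 CPM or more in WT, 4 lay above and 4 below WT in E(z)-KD without overlap, with a median ratio of 0.98.

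**Figure D2:**
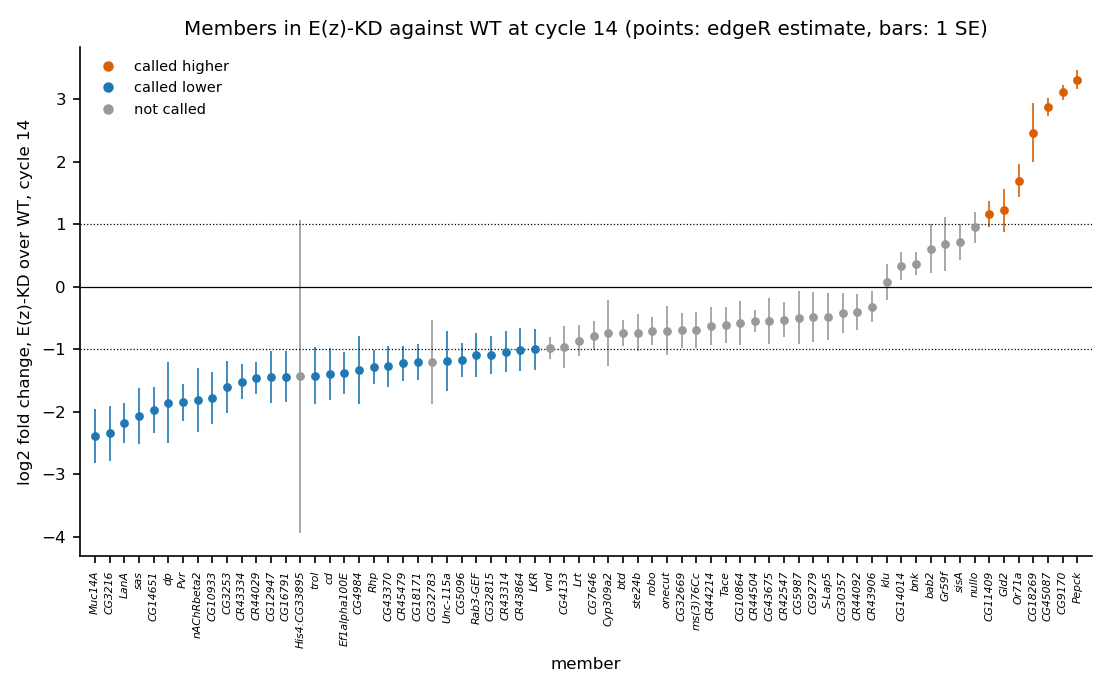
Log2 fold change of each of the 68 kept genes in E(z)-KD over WT at cycle 14 (points, edgeR estimates; bars, 1 standard error), ordered by size, with dotted lines at -1 and 1. The 7 genes called higher run from CG11409 (1.16) to Pepck (3.31), and Muc14A (-2.38) has the lowest estimate among the 29 called lower.

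The genes of cellularization and X-chromosome counting, bnk, nullo and sisA, were among the most abundant kept genes. They lay above WT in E(z)-KD by library values but were not called. bnk (bottleneck) restrains the contraction of the actin rings during cellularization. It is intronless and lies on chromosome 3R, 31193362 to 31194389, plus strand of dm6. bnk had 454, 584 and 475 CPM in E(z)-KD and 276, 209 and 273 CPM in CBP-KD, against 339, 441 and 379 CPM in WT. The E(z)-KD libraries lay above the WT libraries and the CBP-KD libraries below them, but the log2 fold change in E(z)-KD was 0.37 ± 0.18 (SE) and did not pass the test (edgeR adjusted p = 0.0879). A fit of only the groups compared gave 0.37 (edgeR adjusted p = 0.0293). DESeq2 gave 0.19 with an adjusted p of 0.909. Both estimates lay under the fold limit. Per transcript length, bnk was the most abundant of the kept genes, at 838 TPM (the length-scaled counterpart of CPM) in E(z)-KD and 427 TPM in CBP-KD, against 593 TPM in WT.

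nullo, which stabilizes the furrow at the start of cellularization, is another intronless gene (chromosome X, 7049476 to 7050321, plus strand). It had 103, 135 and 109.9 CPM in E(z)-KD and 81.6, 66.1 and 83.8 CPM in CBP-KD, against 56.7, 69.4 and 51.4 CPM in WT. All 3 E(z)-KD libraries lay above WT, with a log2 fold change of 0.95 ± 0.25 (edgeR adjusted p = 0.00314), just under the fold limit. Without replicate 2 of WT the estimate was 1.11 and without replicate 1 of E(z)-KD it was 1.04, both past the limit, while DESeq2 gave 0.78 with an adjusted p of 0.576.

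sisA, a bZIP transcription factor that reports the number of X chromosomes to the sex switch gene, lies on chromosome X, 11321579 to 11322357, minus strand. It had 112, 96.8 and 123 CPM in E(z)-KD and 55.9, 41.2 and 40.7 CPM in CBP-KD, against 81.4, 60.5 and 60.8 CPM in WT. The groups did not overlap, with E(z)-KD highest and CBP-KD lowest. The log2 fold change in E(z)-KD was 0.71 ± 0.28 (edgeR adjusted p = 0.0388), under the fold limit. DESeq2 gave 0.52 with an adjusted p of 0.646, and a fit of only the groups compared gave 0.72 (edgeR adjusted p = 0.00226). With 1 library left out, the edgeR adjusted p ran from 0.0439 (without replicate 1 of WT) to 0.158 (without replicate 3 of E(z)-KD). The other zygotic genes of the sex determination list, os, run and sc, were all in the class lower in CBP-KD. Of 13 tested genes of the cellularization and cell cycle list, 2 were called higher in E(z)-KD, and of 11 tested sex determination genes 1 was called higher and 1 lower. Over all genes tested, 11.3% were called higher and 13.0% lower in this contrast.

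CG14014 is an intronless gene of unassigned function here. It had 407, 470.3 and 413 CPM in E(z)-KD and 345, 295 and 363 CPM in CBP-KD, against 309, 352 and 353 CPM in WT, where the CBP-KD and WT libraries overlapped. The E(z)-KD estimate was 0.33 ± 0.22 (edgeR adjusted p = 0.209). With only the groups compared in the fit it was 0.34 (edgeR adjusted p = 0.00770), under the fold limit. DESeq2 gave 0.15 with an adjusted p of 0.942. The intronless CG18269 starts 1002 bases away on the opposite strand, at chromosome 2L, 5551838 to 5552756, plus strand, and was kept too. On CG18269 both knockdowns lay above WT, with 54.5, 47.4 and 37.2 CPM in E(z)-KD and 14.6, 12.9 and 20.7 CPM in CBP-KD, against 8.17, 8.28 and 8.46 CPM in WT. The log2 fold change in E(z)-KD was 2.46 ± 0.47 (edgeR adjusted p = 2.35e-04). Oscillin, 94 bases from CG14014, was in the class lower in CBP-KD, with means of 1.32 ± 0.38 CPM in CBP-KD and 5.51 ± 0.41 CPM in WT (SD, n = 3 each).

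Kept genes also lay inside genes that were not kept. bnk lies in an intron of mesh on the opposite strand, and mesh averaged 1.26 ± 0.73 CPM in CBP-KD and 10.1 ± 0.67 CPM in WT (SD, n = 3 each). nullo lies in an intron of CG12541, also on the opposite strand, which averaged 0.42 ± 0.28 CPM in CBP-KD and 5.44 ± 0.76 CPM in WT (SD, n = 3 each). In all, 8 of the 64 annotated kept genes lie inside an intron of another gene. For Or71a in Plp, Gld2 in SKIP, CG18171 in drpr, CG10864, CG30357 and CG32669 the host is on the same strand, so reads from unspliced host RNA could not be told apart from the gene's own.

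**Figure D3:**
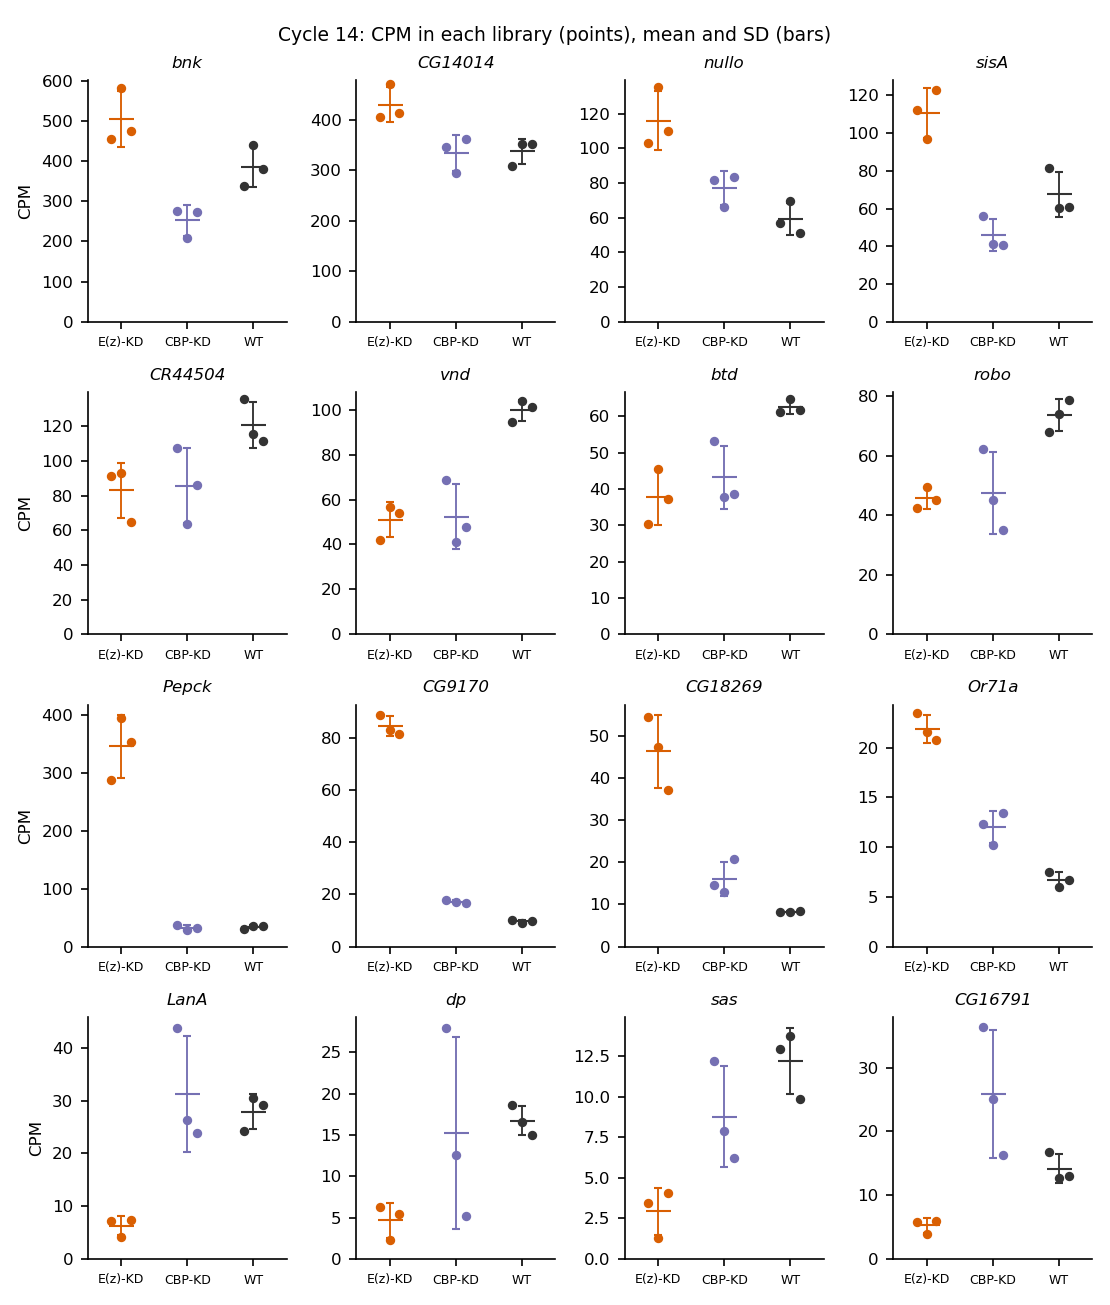
CPM at cycle 14 of 16 kept genes in each library of E(z)-KD, CBP-KD and WT (points), with the mean and SD of 3 replicates (bars) on axes that start at 0. The intronless bnk, CG14014, nullo and sisA lie above WT in E(z)-KD, Pepck and CG9170 stand highest in E(z)-KD, and LanA, dp, sas and CG16791 lie below WT in E(z)-KD while their CBP-KD libraries spread widely.

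The patterning factors vnd and btd lay below WT in both knockdowns. vnd, an NK homeobox gene that specifies the ventral column of the neurectoderm (chromosome X, 582121 to 598151, plus strand), had 42.1, 56.8 and 54.2 CPM in E(z)-KD and 68.6, 41.0 and 47.6 CPM in CBP-KD, against 94.7, 104 and 101 CPM in WT. Every knockdown library lay below every WT library. The log2 fold change in E(z)-KD was -0.98 ± 0.18 (edgeR adjusted p = 1.86e-04), just short of the fold limit, and DESeq2 gave -1.16. With a CBP-KD ratio of 0.52, vnd lay near the lower limit of the choice.

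btd (buttonhead), a zinc finger factor of the Sp family required for head segments (chromosome X, 9694186 to 9697558, plus strand), likewise lay below WT in every knockdown library. It had 30.4, 45.7 and 37.2 CPM in E(z)-KD and 53.2, 37.8 and 38.6 CPM in CBP-KD, against 61.2, 64.9 and 61.7 CPM in WT, with a log2 fold change in E(z)-KD of -0.74 ± 0.21 (edgeR adjusted p = 0.00553), under the fold limit. In the same E(z)-KD contrast, 9 of 22 tested gap and head genes, 19 of 31 dorsoventral genes and 26 of 52 germ layer markers were called lower, and 1 germ layer marker was called higher. The shares over all genes tested were 13.0% lower and 11.3% higher. The transcription factors onecut, klu and bab2 are named here for their role after their values were seen. onecut, a homeobox factor, had 5.08, 3.76 and 4.50 CPM in E(z)-KD and 6.30, 4.82 and 3.35 CPM in CBP-KD, against 7.37, 6.75 and 7.41 CPM in WT, and lay below WT in every knockdown library but was not called in E(z)-KD (edgeR adjusted p = 0.136). The zinc finger factor klu had 4.95, 5.69 and 7.59 CPM in E(z)-KD and 5.36, 5.80 and 6.16 CPM in CBP-KD, against 6.25, 5.74 and 5.23 CPM in WT, and the 3 groups overlapped. bab2 had 13.7, 7.22 and 11.4 CPM in E(z)-KD and 15.1, 9.42 and 7.86 CPM in CBP-KD, against 8.01, 6.10 and 7.03 CPM in WT, and was not called (edgeR adjusted p = 0.191).

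Of the kept genes, 10 were annotated as noncoding, and 3 of these carry microRNA genes in their exons. CR44504 (chromosome 2R, 19659645 to 19661847, minus strand) spans 8 microRNA hairpins of the mir-309 cluster, namely mir-309, mir-3, mir-286, mir-4, mir-5, mir-6-1, mir-6-2 and mir-6-3, which is known for helping to clear maternal RNA from the early embryo. The measured value is the host transcript, and mature microRNAs were not measured here. CR44504 had 91.5, 92.8 and 64.9 CPM in E(z)-KD and 107, 63.7 and 86.3 CPM in CBP-KD, against 136, 115 and 111 CPM in WT. All knockdown libraries lay below the WT libraries, and the log2 fold change in E(z)-KD was -0.55 ± 0.18 (edgeR adjusted p = 0.0149), under the fold limit.

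CR44214, on the same strand 1804 bases away, was kept as well. It had 9.97, 8.22 and 6.88 CPM in E(z)-KD and 27.4, 15.4 and 15.7 CPM in CBP-KD, against 13.8, 13.0 and 11.6 CPM in WT. Its CBP-KD libraries lay above WT and its E(z)-KD libraries below, with a log2 fold change in E(z)-KD of -0.62 ± 0.30 that did not pass the test (edgeR adjusted p = 0.0879). A fit of only the groups compared gave -0.62 (edgeR adjusted p = 0.0111) and DESeq2 gave -0.81 (adjusted p = 0.0115). Both were short of the fold limit. With 1 library left out the edgeR adjusted p ran from 0.0822 to 0.230. CG11018, 588 bases from CR44504, was in the class lower in CBP-KD, at 2.12 ± 0.23 CPM in CBP-KD and 5.76 ± 1.18 CPM in WT (SD, n = 3 each).

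CR43334 (chromosome 3L, 628435 to 643900, plus strand) holds the hairpin of bantam (mir-ban), a microRNA that promotes growth and blocks cell death. It had 5.14, 2.82 and 3.72 CPM in E(z)-KD and 14.6, 8.87 and 8.41 CPM in CBP-KD, against 12.7, 10.4 and 10.3 CPM in WT, so that E(z)-KD lay below WT while CBP-KD overlapped it, and it was called lower in E(z)-KD with a log2 fold change of -1.52 ± 0.28 (edgeR adjusted p = 1.82e-04). CR43314 (chromosome 2L, 11952200 to 11971094, minus strand) holds the hairpin of bereft (mir-bft). It had 4.32, 7.45 and 7.16 CPM in E(z)-KD and 7.97, 5.31 and 6.52 CPM in CBP-KD, against 14.7, 11.6 and 12.4 CPM in WT. Both knockdowns lay below WT, and its call in E(z)-KD (-1.04 ± 0.33, edgeR adjusted p = 0.0157) was lost without replicate 1 of E(z)-KD (-0.82), without replicate 1 of WT (-0.95) and with no low-count filter (-0.997). In the class lower in CBP-KD, 4 of 386 annotated genes hold a microRNA gene in an exon, CR45361 with mir-1 and CR42651 with mir-10 among them, against 4 of 64 among the kept genes, trol being the fourth. With introns counted too, 9 of the 386 and 4 of the 64 hold a microRNA gene. These few cases are a description, and a difference between the classes was not tested.

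The other noncoding members were weak. CR44029, CR45479 and CR43864 were called lower in E(z)-KD, with log2 fold changes of -1.46, -1.23 and -1.01. The call of CR43864 was lost without replicate 3 of WT (-0.87), without replicate 2 (-0.92) or 3 (-0.93) of E(z)-KD, with no TMM factors (-0.997) and with no low-count filter (-0.97). CR42547, CR43906 and CR44092 were not called, with estimates of -0.53, -0.32 and -0.41. Of 301 tested genes on the list of small RNA and CR genes, 24 were called higher and 63 lower in E(z)-KD, against 11.3% and 13.0% of all genes tested.

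The genes called higher in E(z)-KD at cycle 14 were led by Pepck. Phosphoenolpyruvate carboxykinase is a key enzyme of gluconeogenesis. Pepck had 289, 395 and 355 CPM in E(z)-KD and 37.0, 28.9 and 31.9 CPM in CBP-KD, against 31.2, 35.9 and 35.7 CPM in WT. CBP-KD and WT overlapped, while E(z)-KD stood apart with a log2 fold change of 3.31 ± 0.15 (edgeR adjusted p = 3.79e-10). CG45087 (chromosome 2R, 18536767 to 18539416, plus strand) had 288, 410.1 and 358 CPM in E(z)-KD and 31.0, 30.5 and 35.2 CPM in CBP-KD, against 57.1, 41.8 and 45.8 CPM in WT, and a log2 fold change of 2.88 ± 0.15 (edgeR adjusted p = 5.80e-08). These may not be separate observations: CG45087 shares exons on the same strand with a gene annotated as Pepck1, and both rows held fractional counts in 50.0% of the libraries, so their reads may be partly shared.

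CG9170, annotated today as Cep164 (in humans, CEP164 is a protein of the centriole that is needed for cilia), lies on chromosome X, 15977967 to 15982944, minus strand. It had 88.6, 83.0 and 81.3 CPM in E(z)-KD and 17.7, 17.1 and 16.7 CPM in CBP-KD, against 10.3, 9.15 and 9.79 CPM in WT. The 3 groups did not overlap, with WT lowest, and the log2 fold change in E(z)-KD was 3.11 ± 0.12 (edgeR adjusted p = 7.68e-12). The odorant receptor gene Or71a, which lies in an intron of Plp, had 23.4, 21.5 and 20.7 CPM in E(z)-KD and 12.3, 10.2 and 13.4 CPM in CBP-KD, against 7.53, 6.03 and 6.65 CPM in WT. It showed the same order as CG9170, with a log2 fold change of 1.69 ± 0.27 (edgeR adjusted p = 6.89e-05).

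Gld2, a cytoplasmic poly(A) polymerase, had 17.4, 12.7 and 15.0 CPM in E(z)-KD and 13.0, 8.49 and 5.18 CPM in CBP-KD, against 5.77, 8.35 and 4.85 CPM in WT, and a log2 fold change in E(z)-KD of 1.23 ± 0.34 (edgeR adjusted p = 0.00535). Its CBP-KD libraries overlapped both of the other groups. CG11409 had 12.4, 10.9 and 12.9 CPM in E(z)-KD and 7.24, 5.26 and 3.66 CPM in CBP-KD, against 5.45, 5.74 and 4.85 CPM in WT. Its log2 fold change of 1.16 ± 0.21 (edgeR adjusted p = 1.81e-04) became 0.98 with DESeq2, under the limit.

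LanA, dp, sas, Muc14A and Pvr, which encode matrix or cell-surface proteins, were each called lower in E(z)-KD, and were put together for their role after their values were seen. LanA, the laminin alpha chain of basement membranes (chromosome 3L, 6203831 to 6218022, minus strand), had 7.18, 4.17 and 7.37 CPM in E(z)-KD and 43.8, 26.2 and 23.8 CPM in CBP-KD, against 24.2, 30.4 and 29.2 CPM in WT. E(z)-KD lay below WT in every library and CBP-KD spanned the WT range, with replicate 1 highest. The log2 fold change in E(z)-KD was -2.18 ± 0.32 (edgeR adjusted p = 1.93e-05). dp (dumpy), which encodes a giant matrix protein that anchors epidermis to cuticle, had 6.29, 2.29 and 5.41 CPM in E(z)-KD and 28.0, 12.5 and 5.24 CPM in CBP-KD, against 18.6, 16.6 and 15.0 CPM in WT. It was called lower at -1.85 ± 0.65 (edgeR adjusted p = 0.0200), but not without replicate 2 of E(z)-KD, where the estimate was -1.50.

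sas, a cell-surface receptor of epithelia, had 3.43, 1.29 and 4.07 CPM in E(z)-KD and 12.2, 7.88 and 6.22 CPM in CBP-KD, against 13.0, 13.8 and 9.88 CPM in WT, and a log2 fold change of -2.07 ± 0.45 (edgeR adjusted p = 7.87e-04). The mucin gene Muc14A had 1.52, 1.11 and 1.05 CPM in E(z)-KD and 4.93, 3.45 and 2.13 CPM in CBP-KD, against 5.61, 6.10 and 7.41 CPM in WT, the lowest E(z)-KD to WT ratio of the 68 at 0.19 (-2.38 ± 0.43, edgeR adjusted p = 1.64e-04). Both genes lay below WT in all E(z)-KD libraries. Pvr, the fly receptor of the PDGF and VEGF type that guides blood cell and border cell movement, had 1.65, 1.35 and 1.90 CPM in E(z)-KD and 4.35, 3.01 and 2.26 CPM in CBP-KD, against 6.09, 5.95 and 5.51 CPM in WT. It was called lower at -1.85 ± 0.29 (edgeR adjusted p = 4.35e-05).

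robo, the receptor for the axon repellent Slit, was the kept gene with the largest CPM among these. robo had 42.2, 49.4 and 45.2 CPM in E(z)-KD and 62.2, 45.0 and 35.1 CPM in CBP-KD, against 68.1, 74.0 and 78.8 CPM in WT. All knockdown libraries lay below WT, and the E(z)-KD estimate of -0.70 ± 0.22 (edgeR adjusted p = 0.0109) was under the fold limit. Of 15 tested genes on the list of adhesion, junction and Toll receptor genes, 4 were called higher and 4 lower in E(z)-KD, against 11.3% and 13.0% of all genes tested.

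For CG16791 and CG3216 the means of the knockdowns lay on opposite sides of WT. CG16791, annotated today as aus, had 5.84, 3.93 and 5.97 CPM in E(z)-KD and 36.3, 25.0 and 16.2 CPM in CBP-KD, against 16.8, 12.6 and 13.0 CPM in WT. Its log2 fold change in E(z)-KD was -1.44 ± 0.40 (edgeR adjusted p = 0.00541), while replicate 1 of CBP-KD was the highest of all libraries. CG3216 had 1.33, 0.822 and 1.19 CPM in E(z)-KD and 12.7, 8.21 and 9.51 CPM in CBP-KD, against 3.04, 6.82 and 6.75 CPM in WT, with the largest fall after Muc14A (-2.34 ± 0.44, edgeR adjusted p = 3.46e-04). The shallowest WT library, replicate 1, was the one with 3.04 CPM. Among the other genes with large falls, both called lower in E(z)-KD, CG14651 had an estimate of -1.98 and nAChRbeta2, a subunit of the nicotinic acetylcholine receptor, one of -1.81.

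Before cycle 9 the limits hold these genes under 1 CPM in WT, so that a knockdown could hardly be lower. The WT side was thus chosen low, which by itself raises the share called higher. All genes tested are therefore not a matched background at this stage. In E(z)-KD before cycle 9, 16 of the 68 genes were called higher and 2 lower, against 7.44% and 2.1% of all genes tested. The genes called lower were CG12947 and CG30357, named after their values were seen. The count of 16 fell to 9 with a filter of 10 counts in every library of a group, where 15 of the 68 genes were tested. It was also 9 when the fit held only the groups compared, where 16 were tested. CG9170 was the extreme, with 55.7, 64.9 and 72.3 CPM in E(z)-KD and 8.12, 7.50 and 6.17 CPM in CBP-KD, against 0.559, 0.756 and 0.399 CPM in WT, a ratio of 113 in E(z)-KD (log2 fold change 6.81 ± 0.16, edgeR adjusted p = 6.39e-14). Its E(z)-KD libraries before cycle 9 already lay above every WT library of cycle 14.

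Gld2 was similar, with 8.35, 9.83 and 10.5 CPM in E(z)-KD and 0.718, 0.631 and 1.77 CPM in CBP-KD, against 0.186, 0.407 and 0.228 CPM in WT before cycle 9 (log2 fold change in E(z)-KD 5.10 ± 0.45, edgeR adjusted p = 1.51e-07). CG11409 had 5.79, 8.14 and 6.63 CPM in E(z)-KD and 1.51, 1.75 and 1.25 CPM in CBP-KD, against 0.683, 0.872 and 0.741 CPM in WT (3.16 ± 0.24, edgeR adjusted p = 2.91e-08). For these 3 genes E(z)-KD was above WT at both stages. CG32783, annotated today as Gem4c, had 21.0, 19.8 and 9.91 CPM in E(z)-KD and 9.15, 0.702 and 0.435 CPM in CBP-KD, against 0.676, 0.835 and 0 CPM in WT before cycle 9 (5.09 ± 0.92, edgeR adjusted p = 3.44e-04). It held fractional counts in 88.9% of the libraries, and at cycle 14 it had 16.7, 26.2 and 16.9 CPM in E(z)-KD, against 49.4, 37.2 and 50.5 CPM in WT, without a call in the main fit. The log2 fold change there was -1.21 (edgeR adjusted p = 0.126). With only the groups compared in the fit it was -1.20 (edgeR adjusted p = 8.94e-04) and was called, unlike in the other alternatives.

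vnd was also present early in E(z)-KD, with 3.24, 4.68 and 5.01 CPM in E(z)-KD and 1.15, 0.561 and 1.18 CPM in CBP-KD, against 0, 0 and 0.0570 CPM in WT before cycle 9. The E(z)-KD mean lay 24.3-fold above a floor of 3 counts per library in WT (edgeR adjusted p = 1.23e-07), while at cycle 14 the E(z)-KD libraries lay below WT. trol, the basement membrane proteoglycan perlecan, had 1.14, 1.49 and 1.84 CPM in E(z)-KD and 0.718, 0.491 and 2.36 CPM in CBP-KD, against 0, 0.116 and 0.0570 CPM in WT before cycle 9, with the E(z)-KD mean 8.40-fold above the same floor (edgeR adjusted p = 1.32e-04). It was called lower in E(z)-KD at cycle 14 (-1.42 ± 0.45, edgeR adjusted p = 0.0117). The name trol falls outside the rule for named genes and was chosen after its values were seen.

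In CBP-KD before cycle 9, 33 of the 68 genes were called higher, against 7.51% called higher and 2.42% called lower of all genes tested. Of 394 tested genes of the class lower in CBP-KD at cycle 14, 189 were called higher too. Both classes were chosen with WT under 1 CPM at this stage, so all genes tested are not a matched background. The levels were low: 15 of the 68 genes averaged 1 CPM or more in CBP-KD and 13 in E(z)-KD at this stage. robo had 1.80, 1.61 and 4.26 CPM in CBP-KD, against 0.0621, 0.116 and 0.0570 CPM in WT (log2 fold change 5.00 ± 0.57, edgeR adjusted p = 5.30e-06). dp had 1.37, 2.03 and 6.43 CPM in CBP-KD, against 0.435, 0.0582 and 0 CPM in WT (4.41 ± 0.91, edgeR adjusted p = 0.00146). In both genes replicate 3 of CBP-KD was the highest, and this library was the highest of its group for 46 of the 68 genes.

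Without replicate 3 of CBP-KD before cycle 9, the count called higher was 22 in place of 33. With a filter of 10 counts in every library of a group the count was 8 of 13 genes tested. With only the groups compared in the fit it was 7 of 14. In replicates 1, 2 and 3 of CBP-KD, 16, 18 and 14 of the 22 later tissue markers had no count, and their summed level was 5.46, 4.84 and 8.53 CPM, against 9.56, 10.6 and 8.72 CPM in WT. In these CBP-KD replicates 1, 1 and 2 of the markers exceeded 1 CPM, and 1 did in each WT library. The part of these markers in the result was not tested.

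**Figure D4:**
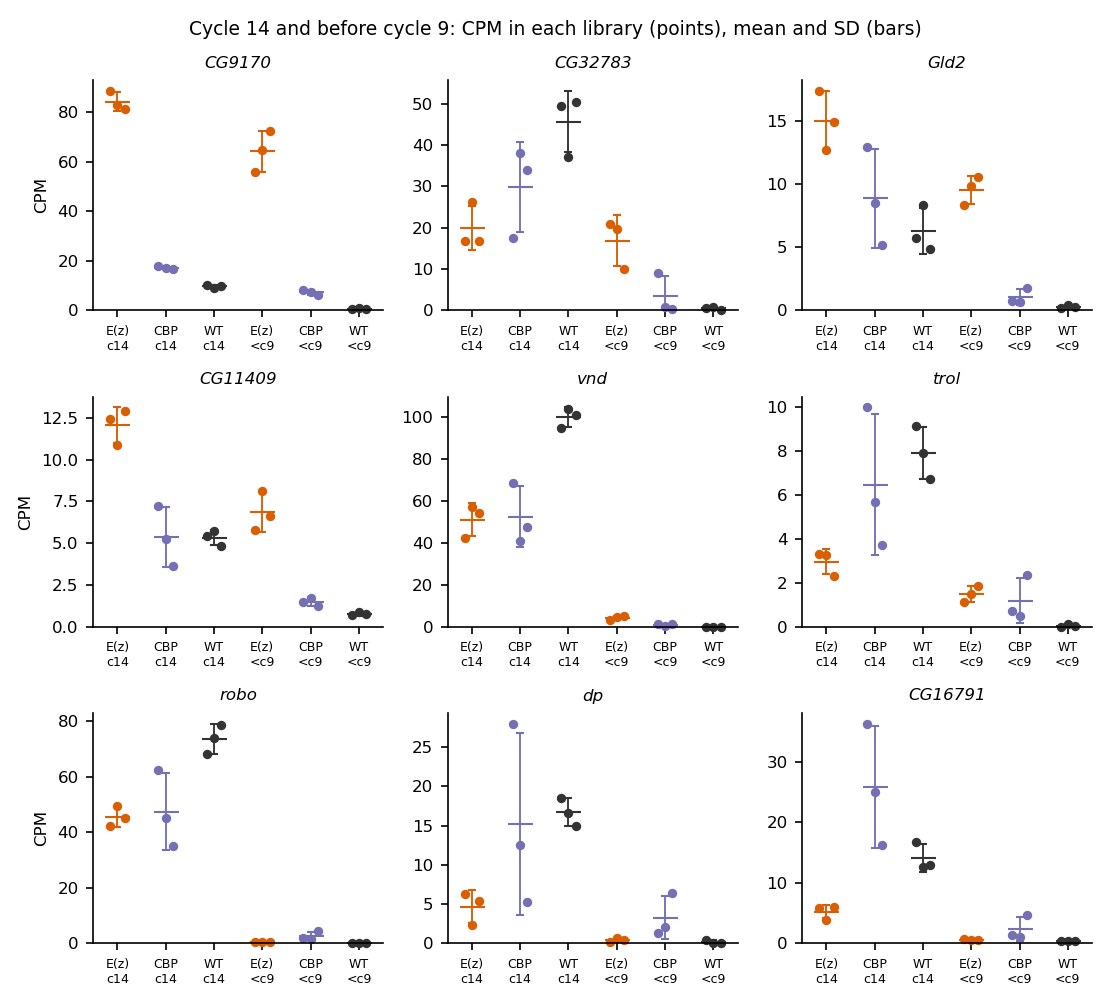
CPM of 9 kept genes in each library (points) with the mean and SD of 3 replicates (bars), at cycle 14 (c14, left) and before cycle 9 (<c9, right), for E(z)-KD, CBP-KD and WT at each stage. CG9170, CG32783, Gld2 and CG11409 are present in E(z)-KD before cycle 9 while WT is near 0, and the CBP-KD libraries of dp and CG16791 spread widely at cycle 14.

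Between the stages within E(z)-KD, whose libraries the limits did not use, 62 of the 68 genes were called higher at cycle 14 than before cycle 9, against 16.1% called higher and 26.5% called lower of all genes tested. Of 394 tested genes in the class lower in CBP-KD, 385 were called higher. bnk reached 454, 584 and 475 CPM at cycle 14, against 0, 0.882 and 0 CPM before cycle 9. For bnk, nullo and CG14014, E(z)-KD replicate 2 gave nearly all of the early counts, with 0.88, 1.56 and 2.31 CPM. Pepck and CG45087 had no count in any E(z)-KD library before cycle 9, and at cycle 14 they were at least 1918-fold and 1952-fold above a floor of 3 counts per library. In all, 31 of the 68 genes averaged 5 CPM or more in E(z)-KD at cycle 14, the limit used for WT.

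The 6 genes not called between the stages in E(z)-KD were CG9170, CG32783, Gld2, CG11409, trol and His4:CG33895. CG9170 had 88.6, 83.0 and 81.3 CPM at cycle 14, against 55.7, 64.9 and 72.3 CPM before cycle 9, a log2 fold change of 0.39 ± 0.10. Gld2 changed by 0.65 ± 0.33, CG11409 by 0.82 ± 0.21 and trol by 0.99 ± 0.47 on the log2 scale. For these genes and CG32783 the stage difference that the limits set in WT was not called in E(z)-KD. His4:CG33895, a copy of the histone H4 gene in a tandem array of near-identical copies, was erratic and is uncertain: at cycle 14 it had 0, 21.9 and 0 CPM in E(z)-KD and 40.5, 0 and 2.97 CPM in CBP-KD, against 61.3, 0 and 0 CPM in WT.

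By gene structure, 18 of the 64 annotated kept genes (28.1%) had no intron, compared with 22.8% of the annotated genes in the class lower in CBP-KD. The median E(z)-KD to WT ratio was 0.68 for intronless and 0.51 for intron-containing kept genes, and 0.56 and 0.34 in the class lower in CBP-KD. Kept genes spanning 10 kb or more had a median E(z)-KD to WT ratio of 0.44 (15 genes), and those under 2 kb one of 0.75 (16 genes). By span, 12.5% (16 of 128) of zygotic genes under 2 kb were kept, 22.8% (23 of 101) at 2 to 5 kb, 14.1% (10 of 71) at 5 to 10 kb and 9.55% (15 of 157) at 10 kb or more. The kept genes lie on every major arm, with 16 on X, 15 on 3R, 14 on 2R, 9 on 3L, 8 on 2L and 2 on chromosome 4.

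Several kept genes rest on counts that may not be their own. In all, 14 share exons with an annotated gene on the same strand and 16 with one on the opposite strand, and 6 held fractional counts in 50.0% or more of the libraries. CG5096, CG7646 and CG43675, named here for this reason, held fractional counts in every library and overlap gny, Nca and drn. At 5 to 10 CPM in WT a gene had 19 to 64 counts in the WT library where its count was lowest, so its ratio is the least precise.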

How the data were processed

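Total RNA of staged embryos was depleted of ribosomal RNA and sequenced with a stranded kit; the sample labels also call it nuclear RNA. The authors aligned the reads to dm6 with STAR and deposited a table of estimated counts per gene (2.90% of values were not whole, tolerance 0.01), which were rounded here. Spike-ins were not used here. The labels do not say whether replicates were separate crosses, so p-values measure the spread between these samples. CPM used the column sums of all 16680 rows, and TPM and positions used Ensembl release 115 (BDGP 6.54, dm6 coordinates), with symbols matched through current names (12504 rows) or older names (3992 rows). Of the 68 genes, 64 matched 1 gene; robo, Pepck, dp and LKR did not and have no position. Counts were fitted with edgeR 4.0.16 in R 4.3.3 (TMM factors, filterByExpr by group, glmQLFit over all 6 groups, 8467 genes), with DESeq2 1.42.0, other filters, a replicate block and left-out libraries as alternatives. The code was tested on simulated data. No count interval is given beyond the floor of 3 counts, which covers counting error only.

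The 68 genes and the gene lists were chosen with earlier results of these data known. Named genes were those on a list, the 12 with the highest WT level at cycle 14, the 8 with the largest called rise and the 8 with the largest called fall in E(z)-KD at cycle 14, the 6 with the highest level in E(z)-KD and the 6 in CBP-KD before cycle 9, and those nearest the limits of the choice. The choice of genes without CBP-KD replicate 1 was added after seeing the data.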

Additional observations from a re-analysis of the deposited data

Results flagged for a closer look

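For 14 of the 68 genes every E(z)-KD library lay above every WT library before cycle 9 and below every WT library at cycle 14, a pattern that 3.72% of all genes tested showed. The choice of genes held WT under 1 CPM before cycle 9 and at 5 CPM or more at cycle 14, so the 14 are a description, and the difference between the stages was not tested. Both stages passed the edgeR limits for 2 of them, CG32815 and trol, while 8 of the 14 were not called at cycle 14 and 5 were not called before cycle 9. The ratios of mean CPM in E(z)-KD over WT at cycle 14 were 0.51 for vnd, 0.62 for robo, 0.22 for LanA, 0.37 for CG16791, 0.44 for CG32783, 0.70 for CR42547 and 0.43 for CR45479. They were 0.48 for CG32815, 0.37 for trol, 0.72 for CG9279, 0.66 for Tace, 0.39 for Ef1alpha100E, 0.55 for Lrt and 0.52 for CG4133.

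CG32815 had 0.454, 0.882 and 0.390 CPM in E(z)-KD, against 0.0621, 0.291 and 0.171 CPM in WT before cycle 9, and 4.64, 5.81 and 6.39 CPM in E(z)-KD, against 8.17, 13.1 and 14.1 CPM in WT at cycle 14. Some of the early gaps were small. CR45479 had 0.795, 1.29 and 0.780 CPM in E(z)-KD before cycle 9, against 0.683, 0.756 and 0.741 CPM in WT, and LanA had 0.227, 0.339 and 0.446 CPM in E(z)-KD, against 0.186, 0.174 and 0.114 CPM in WT. CR42547 had 1.14, 1.76 and 1.28 CPM in E(z)-KD before cycle 9, against 0.310, 0.174 and 0.228 CPM in WT, and 3.75, 2.82 and 4.21 CPM in E(z)-KD at cycle 14, against 5.45, 4.57 and 5.42 CPM in WT, where it was not called (edgeR adjusted p = 0.109).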

How the results depend on the processing

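The limits chose 68 genes with TMM-scaled CPM (67 shared) and 60 with DESeq2 size factors (56 shared). They chose 38 with a ratio band of 2/3 to 1.5 and 26 with a WT minimum of 10 CPM. With WT under 0.5 CPM before cycle 9 they chose 58. Only 49 of the 68 remained when every WT library had to meet the WT limits, in place of the WT mean. Leaving out 1 library at a time gave 54 to 73. Against WT at cycle 14, the count of genes lower in E(z)-KD was 25 to 39 over all alternatives and 25 to 27 with 1 library left out, and the count higher was 6 to 9. Before cycle 9, requiring 10 counts in every library of a group left 9 called genes for E(z)-KD and 8 for CBP-KD, since fewer members were tested (15 and 13 of the 68); fitting only the groups compared left 9 and 7, with 16 and 14 members tested. With 1 library left out these counts were 12 to 16 for E(z)-KD and 22 to 33 for CBP-KD, lowest without replicate 3 of CBP-KD. The median log2 fold change in E(z)-KD at cycle 14 was -0.9996 with DESeq2, whose size factors moved the median of all genes to -0.21, and -0.78 with only the groups compared; with 1 library left out it ran from -0.89 to -0.76. Of 37 named genes, 30 had the same call under every alternative, 7 crossed a limit, and no called value changed sign. The uncalled estimate of His4:CG33895 changed sign, at -1.44 as reported, 2.71 with the replicate block and 9.82 without replicate 1 of WT. The main fit did not pair samples of the same replicate number. Their deviations correlated at 0.06, -0.07 and -0.17 between E(z)-KD and WT at cycle 14, and at 0.17, 0.04 and 0.15 before cycle 9. Between different numbers the correlations ran from -0.09 to 0.16 at cycle 14 and from -0.17 to 0.004 before cycle 9. With a replicate block, 29 genes were lower and 7 higher in E(z)-KD at cycle 14, and before cycle 9 16 were higher for E(z)-KD and 33 for CBP-KD. Depth limits the early stage, where 36 of the 68 genes had 3 counts or fewer in every WT library.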
